A study of Homo sapiens with 4 samples.

Results

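Minisatellite arrays at shallow BrdU sites were analysed: stretches of tandemly repeated DNA that lay under a BrdU peak. A peak was taken as an array when its hg38 sequence, shifted against itself by its best offset, matched at 70% or more of positions, the offset was at least 7 bp and at most 120 bp, and no more than 3 peaks of its merged site covered any base. The rule found 1987 peaks at 1324 merged sites, of 33295 peaks in the series and of 25287 merged autosomal sites, and these are called member peaks and member sites. Overlapping or touching peaks were merged into a site, and the depth of a site is the largest number of its peaks over 1 base: 675 member sites had depth 1, 417 had depth 2 and 232 had depth 3.

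The series followed S-phase in BJ-hTERT cells, a single established line of telomerase-immortalized human foreskin fibroblasts, released from serum starvation and given the thymidine analog BrdU before collection. Newly replicated DNA carries BrdU and is recovered by immunoprecipitation for BrdU-Seq, and peaks of its signal were called at 16, 19, 22, 24 and 28 h. The deposited list pooled the peaks of all timepoints, so that it holds intervals with neither height nor timepoint, it does not say how the 2 repeats of the experiment entered it, and the read depth behind a peak is unknown. The 4 ChIP-Seq samples of the series, RNAPII and PCNA at 14 and 16 h, were not analysed here.

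Minisatellites are head-to-tail copies of a unit longer than those of microsatellites and shorter than that of alpha satellite. In the human genome they are known to be frequent near chromosome ends and to gain or lose copies between people, and their copies can be identical or can carry substitutions. Tandem repeats can slow a replication fork and let the strands pair out of register, and they are also hard to place with short reads. All sequences and copy numbers below are those of the hg38 reference, not of the cells. The effect of copy number or of read placement on the peaks was not tested.

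There were no replicates of a site, so that no difference between groups of sites was tested. Shares are given with exact Clopper-Pearson 95% intervals and medians with order-statistic 95% intervals, all over merged sites and for counting error only, since nearby sites can lie in the same array. At each array site, the peak with the highest self-match stood for the site. Values are set beside those of 220 array sites of depth 4 or 5, 144 short-unit array sites of depth 3 or less (best offset under 7 bp) and the 23599 other autosomal sites, which include a few deeper short-unit arrays.

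For units of 7 to 19, 20 to 39, 40 to 59 and 60 to 120 bp, the 2 sites with the highest self-match are shown first, because they give the cleanest view of what was repeated. Where sites tied at 100%, the widest peaks were taken. They are written 5′ to 3′ on the reference strand of hg38, and each is 1 copy of a stretch in which consecutive copies were identical. The 17-bp unit lies between genes at chr6:170146140-170146463 and the 9-bp unit in an intron of SERINC2, a gene of the serine incorporator family, at chr1:31431821-31432058. The 33-bp unit lies in an intron of CAMK1D, a calcium/calmodulin-dependent protein kinase, at chr10:12775155-12775758, and the 32-bp unit between genes at chr5:14634223-14634614.
chromosome 6, 17-bp unit: gaggtgtgtaggagggt
SERINC2, 9-bp unit: gatagggtg
CAMK1D, 33-bp unit: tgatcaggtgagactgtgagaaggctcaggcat
chromosome 5, 32-bp unit: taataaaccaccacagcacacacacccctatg

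The identical stretch ran for 5 copies (101 bp) at the chromosome 6 peak and for 7 copies (63 bp) in SERINC2. In CAMK1D it took in the whole peak of 604 bp, with 18 full copies, and on chromosome 5 the whole peak of 392 bp, with 12. The chromosome 6 unit has no C on the strand shown, whereas the chromosome 5 unit is rich in C and A.

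The longer units came from an intron of INPP5A, an inositol polyphosphate 5-phosphatase (chr10:132622328-132622924), an intergenic site at chr17:1311000-1311414, an intron of ACTN2, the alpha-actinin of the muscle Z-disc (chr1:236713683-236714960), and an intergenic site at chr1:214683140-214683549. They are again on the reference strand.
INPP5A, 58-bp unit: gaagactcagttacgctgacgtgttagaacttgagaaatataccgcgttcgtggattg
chromosome 17, 46-bp unit: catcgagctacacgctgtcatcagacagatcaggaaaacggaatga
ACTN2, 67-bp unit: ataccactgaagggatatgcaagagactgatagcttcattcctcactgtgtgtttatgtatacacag
chromosome 1, 86-bp unit: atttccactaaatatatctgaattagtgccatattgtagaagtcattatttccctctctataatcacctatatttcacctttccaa

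Each of these 4 peaks was an exact repeat from edge to edge. The ACTN2 peak held 19 full copies over 1278 bp, the INPP5A peak 10 over 597 bp, the chromosome 17 peak 9 over 415 bp and the chromosome 1 peak 4 over 410 bp. Their strand asymmetry was measured as the G-C skew, (G − C)/(G + C), which is positive where G exceeds C on the strand read. It was near 0 in ACTN2 (0.0330) and on chromosome 17 (-0.00503), higher in INPP5A (0.224) and strongly negative on chromosome 1 (-0.512).

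**Figure D1:**
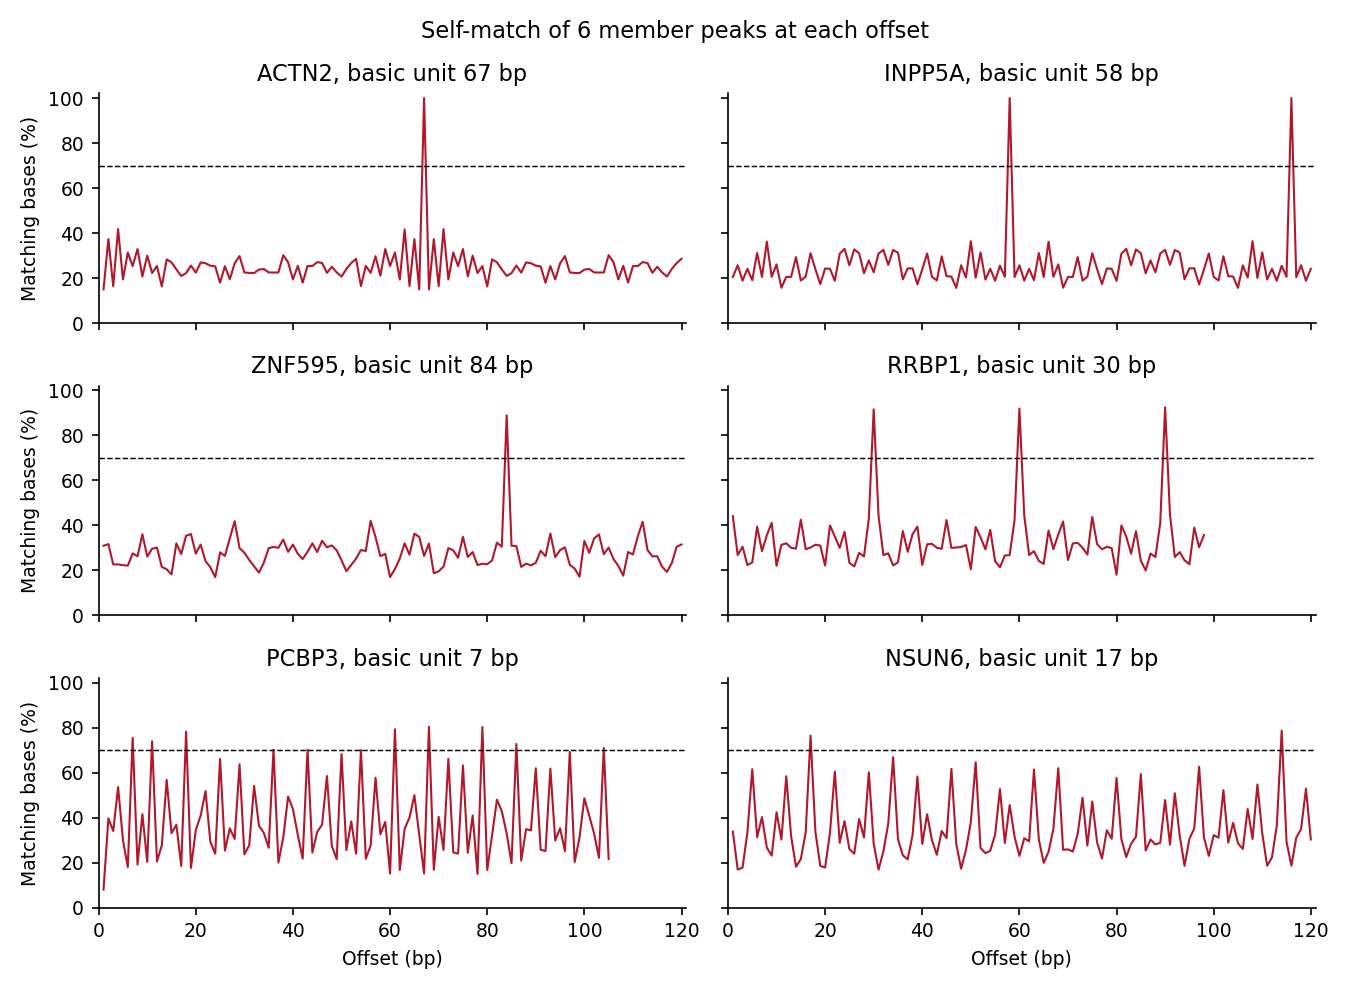
Share of bases (%) that match when a peak is shifted against itself by each offset (bp), for 6 member peaks; the dashed line is the limit of 70%. ACTN2 and ZNF595 have 1 offset at or above the limit, INPP5A has 2 and RRBP1 has 3, whereas PCBP3, with a 7-bp unit, has 11.

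The self-match sets the rule, so it is given as a description only. Its median over member sites was 79.8% (IQR 74.3 to 89.5), with 27 sites at 100%, 318 at 90% or more and 373 under 75%. At the limit, 237 peaks of depth 3 or less with an offset of at least 7 bp lay from 70% to under 72% and 228 lay from 68% to under 70%. Only 6 peaks had a best offset of 7 bp, whereas 53 had one of 6 bp and were left out.

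The repeat units spread over the whole range that the rule allows. The best offset had a median of 57 bp (95% interval 54 to 60). A best offset can span several copies, so the basic unit was taken as the smallest offset whose match came within 5 percentage points of the best: its median was 32 bp (95% interval 30 to 34; IQR 13 to 56). The best offset was the basic unit at 733 sites and a multiple of it at 367. At the rest it was neither, so that unit lengths and copy numbers are less certain there. Of the 1324 sites, 1113 had a basic unit of at least 7 bp and 211 had a shorter one, which is a microsatellite unit by the usual division, so that the name minisatellite covers most but not all members.

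The commonest basic units were 5 bp (71 sites), 4 bp (55), 6 bp (42), 12 bp (35), 20 bp (34) and 15 bp (33). Above 40 bp no length stood out but 84 bp, with 29 sites, and 84 bp was also the commonest best offset, with 40 sites. Of these 40 sites, 21 lay in the coding sequence of zinc finger genes and 3 in that of MUC12, described below.

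**Figure D2:**
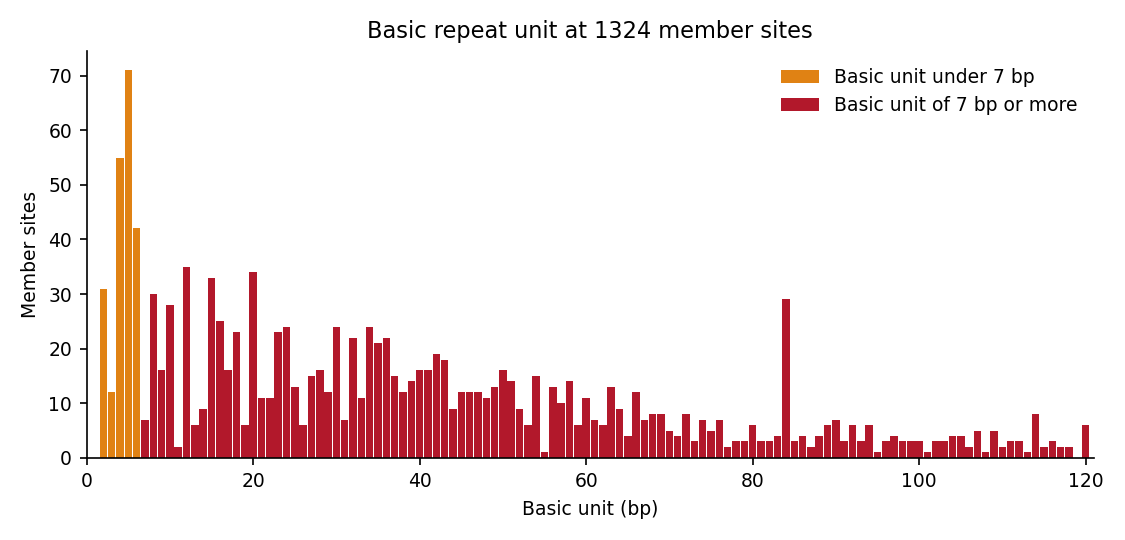
Number of member sites (y axis) by basic unit in bp (x axis); orange bars are units under 7 bp (211 sites) and red bars units of 7 bp or more (1113 sites). The bar at 84 bp holds 29 sites.

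Member sites covered a wide range of GC content, from 26.7% to 72.02%. The median was 47.5% (95% interval 47.0 to 48.1), beside 47.0% at array sites of depth 4 or 5, 46.2% at short-unit array sites and 38.1% at other sites. It exceeded 50% at 474 of 1324 member sites, 35.8% (33.2 to 38.5), whereas 5.70% of all autosomal sites did. Few were very GC-rich: 59 sites exceeded 60% GC and 241 (18.2%) stayed under 40%. The CpG dinucleotide, the target of DNA methylation, occurred at a median of 8.55 per kb at member sites and 4.61 per kb at other sites. The median was 8.41 per kb at array sites of depth 4 or 5 and 3.11 per kb at short-unit array sites.

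At many member sites the bases were unequally shared between the strands. Taken without its sign, the median G-C skew of member sites was 0.563 (95% interval 0.545 to 0.589), beside 0.628 at deeper array sites, 0.883 at short-unit array sites and 0.190 at other sites. A skew of 0.5 or more, meaning at least 3 of one base for each 1 of the other, was found at 762 member sites, 57.6% (54.8 to 60.2), and at 14.6% of all autosomal sites. The A-T skew differed less, with a median of 0.304 at member sites and 0.233 at other sites. It was 0.305 at deeper array sites and 0.252 at short-unit array sites.

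The excess of G fell about equally on either strand. G exceeded C on the reference strand at 638 of the 1321 member sites with unequal counts (48.3%). Inside genes of 1 strand it lay on the coding strand at 350 of 620 sites, 56.5% (52.4 to 60.4), and at other sites in such genes this share was 55.0%. Among sites with a skew of 0.5 or more it was 58.4% (52.6 to 64.0) for members and 62.9% (60.2 to 65.5) for other sites. The strand with more G also had more A at 658 of 1311 member sites (50.2%) and at 63.8% of other sites. Purines were thus on the same strand at about as many member sites as not.

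A G-quadruplex motif, 4 runs of at least 3 G with loops of 1 to 7 bases on either strand, is a sequence that can fold into a four-stranded structure. It was found at 13 member sites, 0.982% (0.524 to 1.67), near the 0.763% of all autosomal sites, and at 6 deeper array sites (2.73%). A pair of telomere units, TTAGGG in tandem on either strand, was found at 0 of 1324 member sites, which allows a share of up to 0.278%.

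**Figure D3:**
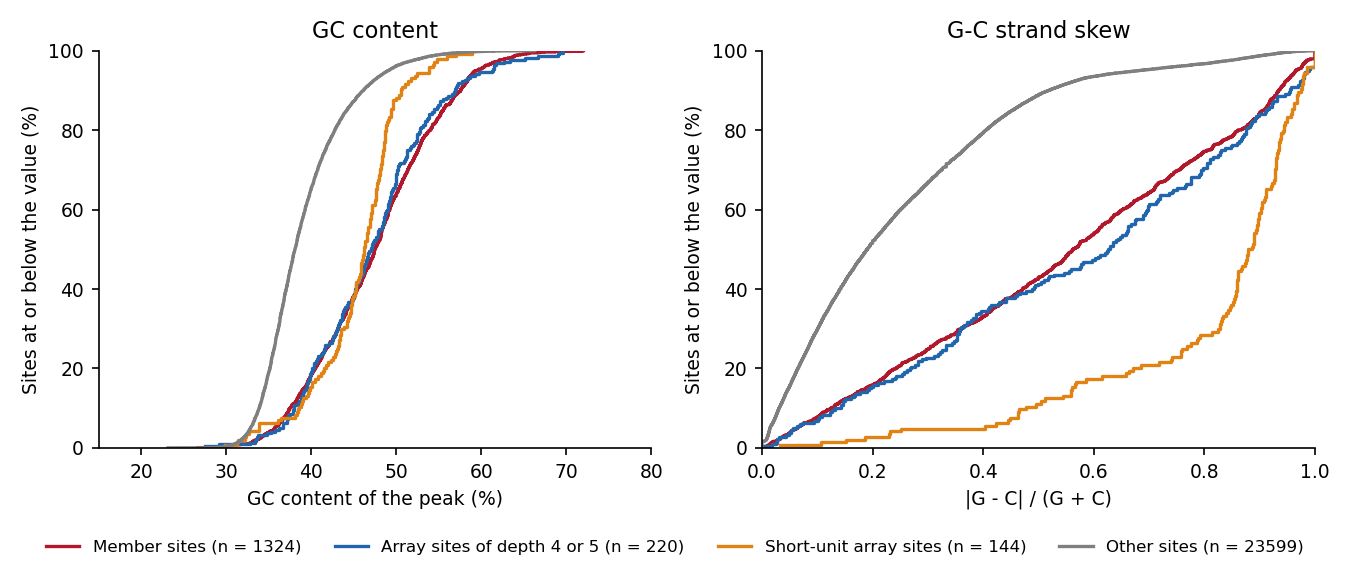
Cumulative share of sites (%) by GC content of the peak (left, %) and by G-C skew (right, no unit), for member sites, array sites of depth 4 or 5, short-unit array sites and other sites. Member and deeper array sites run close together in both panels, with median GC contents of 47.5% and 47.0%, and the other sites lie to the left of them.

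Composition went with the length of the unit. The 211 sites with a basic unit under 7 bp had a median GC of 45.3% and a median skew of 0.815, and the 236 with units of 7 to 19 bp had 45.0% and 0.732. With units of 20 to 39 bp (337 sites) these were 49.6% and 0.502, and with 40 to 59 bp (242 sites) 50.3% and 0.345. The 298 sites with units of 60 to 120 bp had 47.2% and 0.417. Short units were thus the strongly skewed ones, and units of 40 to 59 bp had the most even strands, the most CpG (median 19.0 per kb) and the most alike copies (median self-match 89.4%).

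An example of extreme skew was PCBP3, which encodes a poly(C)-binding protein. Intron 4 of PCBP3 held 3 member sites along 1 array of 1679 bp with a 7-bp unit, with G-C skews of 0.992, 0.982 and 0.987 and GC contents between 52.1% and 52.5%. The run below, at chr21:45815266-45815321 on the reference strand, is the coding strand of PCBP3, and capitals mark bases that differ from the most frequent base at that position of the 7-bp unit.
PCBP3, 8 units of 7 bp: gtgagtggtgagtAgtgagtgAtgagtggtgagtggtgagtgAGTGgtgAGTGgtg

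The run has no C. The other 3 member sites of PCBP3 had longer units of 43, 59 and 32 bp, and skews of 0.288, 0.0940 and -0.0392.

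Many member sites lay near a chromosome end. Within 5 Mb of an end were 585 of 1324, 44.2% (41.5 to 46.9), beside 8.62% of all autosomal sites and 7.0% of known autosomal sequence. The share was 54.1% (47.3 to 60.8) at deeper array sites, 20.8% (14.5 to 28.4) at short-unit array sites and 6.12% at other sites. Within 1 Mb it was 15.6% for members and 0.979% for other sites, and the median distance to the nearer end was 7.26 Mb for members and 37.5 Mb for other sites.

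**Figure D4:**
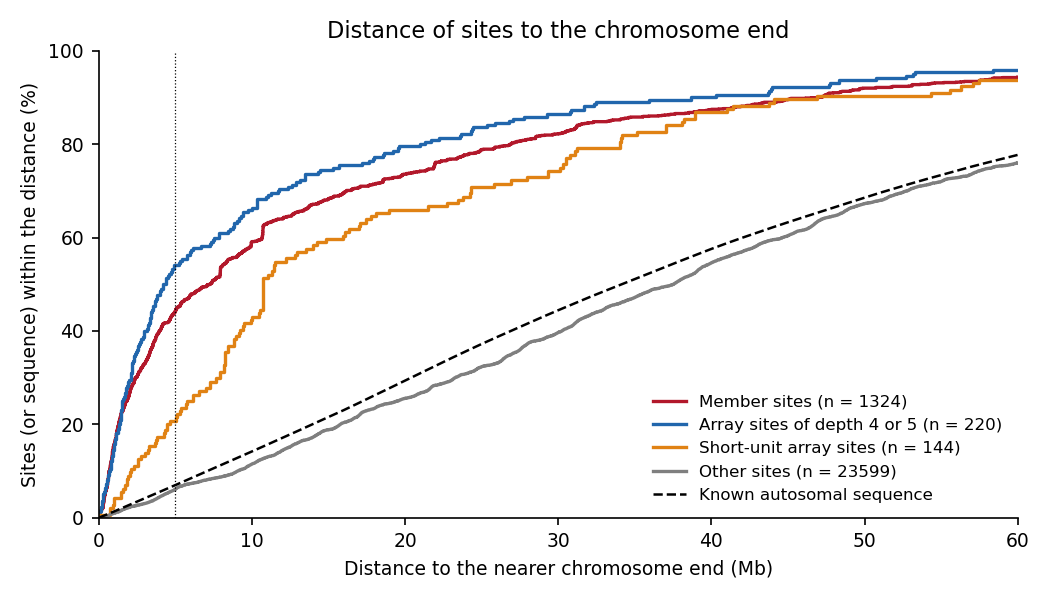
Cumulative share (%) of sites of each group, and of known autosomal sequence (dashed), within a given distance (Mb) of the nearer chromosome end; the dotted line marks 5 Mb. At that distance the curves stand at 54.1% for array sites of depth 4 or 5, 44.2% for member sites, 20.8% for short-unit array sites and 6.12% for other sites.

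Arrays near the ends also differed from the others in unit length, self-match and composition. Sites within 5 Mb had a median basic unit of 39 bp, a self-match of 83.9%, a GC content of 49.7% and a skew of 0.440. For the 739 sites farther in, these were 24 bp, 77.5%, 45.3% and 0.637. Of the 140 sites with the satellite pentamer described below, with a median GC of 40.6%, only 10 lay within 5 Mb. Medians by distance without the pentamer sites were not computed. By unit length, the share within 5 Mb was 31.3% under 7 bp, 33.5% at 7 to 19 bp, 44.2% at 20 to 39 bp, 62.0% at 40 to 59 bp and 47.3% at 60 to 120 bp.

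The ends were not equally occupied. The long-arm end of chromosome 16 held 38 member sites within 5 Mb, that of chromosome 12 held 29, that of chromosome 21 held 28 and that of chromosome 13 held 26. The short-arm ends of chromosomes 19 and 17 held 25 and 24. On chromosome 13, 26 of 35 sites (74.3%) lay in the end window, and on chromosome 16 51 of 83 (61.4%). Per known Mb, chromosome 21 led with 2.77 sites (111 in all, 24.6% of its BrdU sites), followed by chromosomes 19 (1.51), 22 (1.40), 20 (1.06) and 16 (1.01), while chromosomes 15 (0.177) and 3 (0.192) had the fewest.

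Many of the sites on chromosome 21 held a satellite repeat. At 140 member sites (10.6%, 8.97 to 12.4), at least 20% of bases lay in GGAAT or its reverse complement ATTCC, the pentamer of human satellites II and III, which are known mainly from regions beside centromeres. Of these, 55 lay on chromosome 21, 19 each on chromosomes 17 and 20, 18 on chromosome 10 and 11 on chromosome 22. They were intergenic at 124 sites and within 5 Mb of an end at 10. Their basic unit was 5 bp at 70 sites and a multiple of 5 bp at 123, with a median GC of 40.6%.

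They were tightly clustered. On chromosome 21, 27 sites lay between 10659488 and 10738148 and 25 between 7259550 and 7957749, while 11 sites of chromosome 22 fell within 12.8 kb. The run below, at chr21:10659492-10659551 on the reference strand, shows the pentamer, with capitals where a base differs from the most frequent one at its position in the unit.
chromosome 21, 12 units of 5 bp: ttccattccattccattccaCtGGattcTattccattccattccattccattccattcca

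Without the pentamer sites, chromosome 21 had 56 member sites, 1.40 per known Mb, and the share of members within 5 Mb of an end was 48.6% of 1184 sites. The share of sites with the pentamer was highest at depth 1: it was found at 15.7% (13.0 to 18.7) of member sites of depth 1, 5.28% of those of depth 2, 5.17% of those of depth 3 and 0.909% of deeper array sites.

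NSUN6, an RNA cytosine methyltransferase gene, held the pentamer inside a protein-coding gene. Its 8 member sites all lay in intron 8, within chr10:18555046-18573236, and 7 of them had a basic unit of 17 bp. The 3 sites on the left had more G on the reference strand, with G-C skews of 0.914, 0.920 and 0.878. The 5 sites to the right of them had more C, with skews from -0.855 to -0.938, so that neighbouring arrays of the intron had opposite skew on either side of the stretch from position 18563238 to position 18566084. Consecutive copies from a site on each side (chr10:18557384-18557434 and chr10:18566124-18566174, reference strand) show the difference, with capitals where a copy differs from the most frequent base of its column.
NSUN6 left, copy 1: tggaatggaaGggagCa
NSUN6 left, copy 2: tggaatggaatggagaa
NSUN6 left, copy 3: tggaatggaatggagaa
NSUN6 right, copy 1: cattccattcCAcattc
NSUN6 right, copy 2: cattccattctccattc
NSUN6 right, copy 3: cattccattctccattc

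A second case of opposed strands was intergenic, on chromosome 6. There, 12 member sites within chr6:160842039-160858244 shared a 23-bp unit, with self-matches of 70.4% to 79.4%. Their A-T skew was negative at the 4 leftmost sites (-0.620 to -0.697), positive at the next 4 (0.623 to 0.671) and negative again at the last 4 (-0.541 to -0.654). Copies from a site of the left block (chr6:160842155-160842223) and of the middle block (chr6:160849933-160850001), both on the reference strand, are shown with capitals as before.
chromosome 6 left, copy 1: ctctggattcactgtcgtctttC
chromosome 6 left, copy 2: ctctggGttcactgtTgtctttt
chromosome 6 left, copy 3: ctctggattcacCgtcgtctttt
chromosome 6 middle, copy 1: cccagagaaaTgacgacaAtgaa
chromosome 6 middle, copy 2: cccagagaaaagacgacagtgaa
chromosome 6 middle, copy 3: cccagagaaaaTacAacagtgaa

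By the measure used, most peaks covered only part of their array. The match was followed outward in windows of 2 best offsets until it fell under 60%. The repeat went on beyond both edges of the peak at 892 sites (67.4%), beyond 1 edge at 352 (26.6%) and beyond neither at 80 (6.04%). The first window on each side also compared bases inside the peak. A closely matching peak could thus be scored as going on by 1 offset where the repeat ended, so these shares and array lengths can be too high. The array around a member peak had a median length of 568 bp (IQR 400 to 894) and a median of 23 copies of the basic unit, where the peak itself had a median width of 276 bp. Joined where they overlapped, the arrays numbered 1218, of which 230 were longer than 1000 bp. In 85 arrays there were 2 or more member sites, 191 sites in all (14.4%).

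The longest array, 6802 bp of a 114-bp unit at chr17:121423-128224, held 3 member sites, and peaks covered 15.9% of it. An array of 6283 bp with a 50-bp unit at chr3:198099671-198105953 held 1 site, with 6.81% covered. In an intron of ERC1, which encodes a scaffold protein of the presynaptic zone and of vesicle traffic, 5947 bp of a 65-bp unit held 2 sites, with 11% covered. Only 3.43% of the 5809 bp of a 34-bp unit on chromosome 13 lay under its 1 peak.

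**Figure D5:**
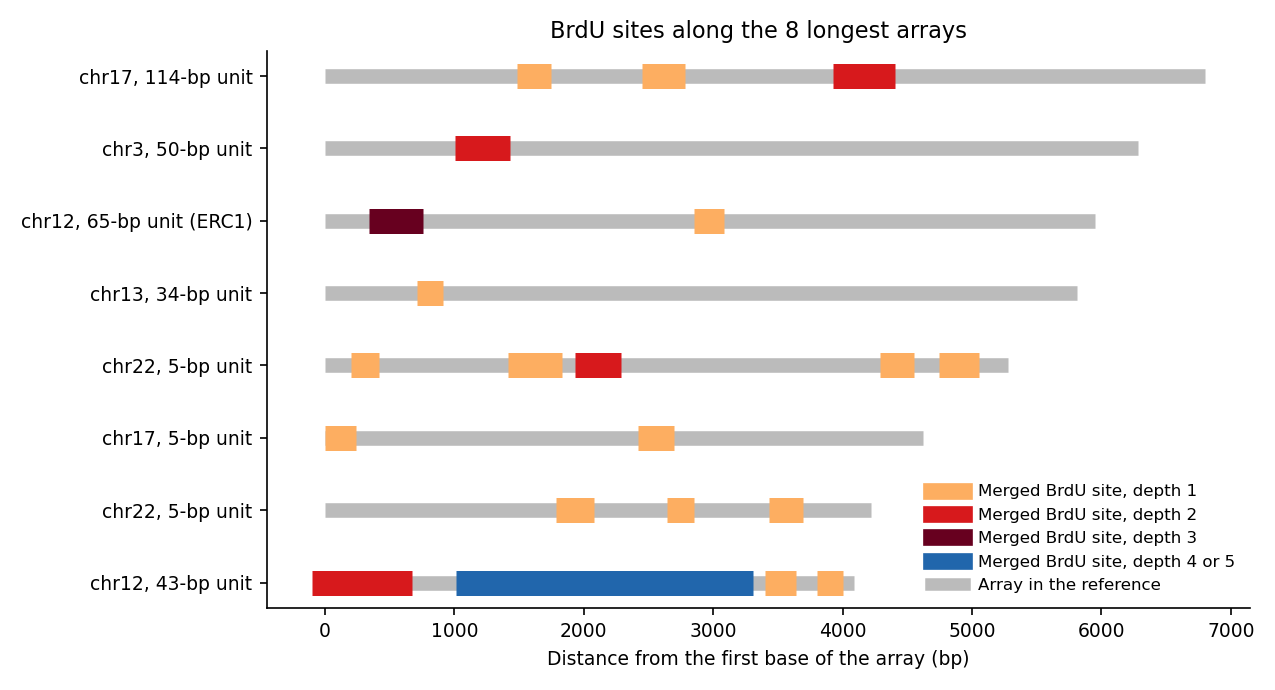
The 8 longest arrays as grey bars, by distance in bp from the first base of each array; coloured boxes are merged BrdU sites of depth 1 to 3 (member sites) and of depth 4 or 5. Peaks covered from 3.43% (chromosome 13) to 83.2% (chromosome 12, 43-bp unit, with 1 site of depth 4 or 5) of an array.

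Coverage was thus uneven among long arrays. The 43-bp array at chr12:132380976-132385062 (4087 bp) held 3 member sites and 1 deeper site, and 12 peaks covered 83.2% of it. The intergenic 46-bp array at chr17:1308019-1311665, whose unit is shown above, held 5 member sites in 3647 bp, and 2 of its sites were exact repeats. The widest member peak, 2948 bp at chr2:113650629-113653576, was intergenic, over a 51-bp unit.

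Protein-coding genes held 633 member sites, 47.8% (45.1 to 50.5), below the 52.9% of all autosomal sites. Introns took 577 (43.6%), coding sequence 32, noncoding exons 24, genes of long noncoding RNA alone 123 (9.29%), and 553 (41.8%) were intergenic, beside 30.9% of other sites. Intergenic members had a median basic unit of 20 bp and intronic ones of 37 bp. Of the 140 pentamer sites, 124 were intergenic. Leaving aside the pentamer sites, 36.2% of members were intergenic. The share of members in protein-coding genes was not computed without them. Its gap to the 52.9% of all autosomal sites is thus not read as a trait of the other arrays.

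Member sites fell in 487 protein-coding genes, of which 383 had 1 site, 63 had 2 and 41 had 3 or more. Those with the most were PTPRN2 (9), NSUN6 (8), INPP5A, CDH4 and PCBP3 (6 each), and SHC2, DIP2C, VPS53, MYT1L, SORCS2 and ROBO2 (5 each). PNPLA7, with 4 sites, was described as well, being the one with the most peaks among several genes tied at 4. In these 12 genes every member site lay within 5 Mb of a chromosome end except in NSUN6 (18.6 Mb from it), SORCS2 (7.39 to 7.66 Mb) and ROBO2 (76.1 to 77.4 Mb). This holds for the genes described, since others tied at 4 sites were left out.

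PTPRN2, a receptor-type phosphatase of secretory granules, lies near the end of chromosome 7. Its 9 member sites were varied: their basic units ran from 2 to 92 bp, their GC contents from 37.8% to 53.4%, and they spread over introns 2 to 13. A group of 3 sites in intron 12 shared a 35-bp unit, with self-matches of 74.1%, 83.6% and 73.9%. The gene held 18 sites in all.

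INPP5A, near the end of chromosome 10, had 6 member sites among its 8 sites. A pair in intron 1 had a 57-bp unit and a pair in intron 8 a 51-bp unit, and the exact 58-bp repeat shown above lay in intron 2. G exceeded C on the coding strand at all 6, with skews from 0.211 to 0.762.

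SHC2, a signalling adaptor gene near the end of chromosome 19, had member arrays at all 5 of its sites. The 3 sites in intron 9 lay in 1 array of 1705 bp with a unit of 49 or 50 bp, and the 2 in intron 8 lay in another of 2841 bp, with units of 54 and 58 bp. The 58-bp site held 9 member peaks and its best peak, 400 bp wide, was an exact repeat.

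VPS53, which encodes a subunit of the GARP tethering complex at the Golgi, had 5 member sites with closely alike copies, with self-matches of 94.1% to 98.98%. Their units were 33, 26, 26, 85 and 41 bp, and 4 of the 5 lay in intron 7. DIP2C, on the opposite end of chromosome 10 from INPP5A, had units of 34, 38, 81, 45 and 110 bp.

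CDH4, which encodes R-cadherin, had 5 of its 6 member sites in intron 2, with units from 2 to 80 bp. MYT1L, a neuronal transcription factor gene, had 2 neighbouring sites with a 16-bp unit in intron 4. PNPLA7, a lysophospholipase gene, had a pair of sites with a 34-bp unit in intron 11, both with more C than G on the reference strand (-0.860 and -0.889), and a 10-bp array of opposite sign in intron 14 (0.975).

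SORCS2, a sorting receptor gene of the VPS10 family, and ROBO2, an axon guidance receptor gene, lay farther from the ends. In SORCS2, 3 of the 5 sites had a G-C skew beyond 0.9 in size (0.951, 0.913 and -0.928). ROBO2, at 1743 kb the longest of the 12 genes, had lower GC contents, from 37.3% to 45.2%, and all of its 5 BrdU sites were members.

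Exact repeats were also found in genes with fewer sites. Of the 27 sites at 100%, the 10 with the widest peaks were looked up by gene. Beside those given above, they included a 53-bp unit in an intron shared by LPAR6, a lysophosphatidic acid receptor, and RB1, the retinoblastoma tumour suppressor, and a 66-bp unit in an intron of OPRL1, the nociceptin receptor.

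Coding sequence was overlapped by 32 member sites, 2.42% (1.66 to 3.39), beside 1.28% of all autosomal sites, and 30 of them lay wholly within it. These were 2 separate groups. Zinc finger genes with symbols beginning ZNF held 21 of the 32, in 18 genes, and in each the best offset was 84 bp, which is 28 codons. C2H2 zinc fingers are DNA-binding modules strung in tandem, and 1 finger with its linker has that length.

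Copies from ZNF595 at chr4:86243-86494, on the coding strand (the reference strand here), show what was alike and what was not, with capitals where a copy differs from the most frequent base of its column.
ZNF595, copy 1: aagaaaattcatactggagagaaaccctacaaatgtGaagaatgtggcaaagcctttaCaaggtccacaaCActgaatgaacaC
ZNF595, copy 2: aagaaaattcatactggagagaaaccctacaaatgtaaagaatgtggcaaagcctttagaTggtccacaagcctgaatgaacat
ZNF595, copy 3: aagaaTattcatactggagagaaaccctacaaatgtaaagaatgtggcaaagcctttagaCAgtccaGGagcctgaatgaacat

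The self-match of the zinc finger sites ran from 73.3% (ZNF782) to 88.9% (ZNF595), and 13 of the 21 lay on chromosome 19. Their GC content was low for an array, with a median of 37.6% (32.6 to 43.4), and their strands were nearly even, with a median G-C skew of 0.0920. They were shallow: 20 of the 21 had depth 1, and the exception was ZNF506 with depth 2. Within 5 Mb of an end lay 2 of them, those in ZNF595 and ZNF732. ZNF208 held 3 sites along 1 array of 3729 bp, and ZNF493 held 2. These genes are paralogs of each other, and how reads were placed among them was not tested.

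The other 11 coding sites lay in 9 genes and were GC-rich, with a median of 58.1%. The highest self-matches were those of RRBP1, a ribosome-binding protein of the endoplasmic reticulum (92.5%, 30-bp unit), and SRRM5 (90.3%, 72-bp unit). SELPLG, the P-selectin ligand of leukocytes (83.6%), and MUC19, a gel-forming mucin (82.9%), also had 30-bp units, and ADPRHL1 had a 36-bp unit (82.9%). MUC12, a membrane mucin, had 3 sites with an 84-bp unit (71.8% to 75.4%). GOLGA6L2, of the golgin family, had a self-match of 74.8%, and HRNR, hornerin of the cornified epidermis, one of 70.3%.

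A copy from RRBP1, identical over 3 copies, is written on the coding strand, which is the reverse of the reference strand, from chr20:17659117-17659206. The 2 copies of MUC12, at chr7:100999936-101000103 on the coding and reference strand, carry capitals in both wherever they differ.
RRBP1, 30-bp unit: ggcccagaaccagggcaagaaggccgaggg
MUC12, copy 1: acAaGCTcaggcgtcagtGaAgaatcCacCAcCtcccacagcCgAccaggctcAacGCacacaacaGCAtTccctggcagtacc
MUC12, copy 2: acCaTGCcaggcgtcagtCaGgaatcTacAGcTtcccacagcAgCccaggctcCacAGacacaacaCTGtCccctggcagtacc

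The best offset was a multiple of 3 bp at 31 of the 32 coding sites, so that a shift by it keeps the reading frame there. The 21 zinc finger sites and the 3 of MUC12 all had the same offset of 84 bp. Among all 1113 member sites with a basic unit of 7 bp or more, that unit was a multiple of 3 bp at 446. This is a count of basic units with the coding sites included. The same count of best offsets over all members was not made. Coding sites were most frequent at depth 1, with 25 of 675 (3.70%, 2.41 to 5.42), beside 6 of 417 (1.44%) at depth 2, 1 of 232 (0.431%) at depth 3 and 2 of 220 (0.909%) at deeper array sites.

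Of 40 genes listed for their well-known tandem repeats, 14 held a BrdU site of any kind, 7 held a member site and 2 a deeper array site, with CACNA1C, an L-type calcium channel gene, counted under both and MUC3A under the latter. The same shares over all protein-coding genes were not computed, so these counts are not read as high or low. Others of the list with a member site included MUC5AC (12-bp unit in an intron, skew -0.946), MUC12, MUC19, HRNR and ZFHX3 (120-bp unit). The member site of CACNA1C lay in intron 9 and had a 30-bp unit with a self-match of 90.5%. Whether the member arrays in listed genes are the repeats for which those genes are known was not tested. No array site was found in 32 of the 40. Among these, DRD4, INS, HRAS, TERT, MUC1 and MUC2 held no BrdU site of any kind. LPA held 6 BrdU sites, MUC17 held 5 and IL1RN held 3, and none of these was an array site.

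Units were linked into families when at least 50% of the 8-base words of the shorter list were shared on either strand. Over all 1113 units of 7 bp or more, 473 sites stood alone and 640 fell into families of 2 or more, of which 1 chain held 480 sites. The cause of that chain was not tested. Restricted to the 854 sites with a unit of at least 20 bp and at least 20 different words, a choice made after seeing the chain, 570 sites stood alone and 284 fell into 78 families. How many units were shared thus turned on this choice. The largest of the 78 families held 46 sites on 20 chromosomes, the next 24 sites on 15 chromosomes and the third 15 sites on 10 chromosomes. A family of 11 sites in zinc finger genes lay on chromosomes 7 and 19, and 8 of the 23-bp sites of chromosome 6 formed another. In all, 16 families spanned 2 or more chromosomes.

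The depth of a site bore differently on the measures. From depth 1 to 2 to 3, the median GC was 47.3%, 47.8% and 46.9%, the median array length 568, 552 and 584 bp, and the share within 5 Mb of an end 43.7%, 44.8% and 44.4%. The median basic unit was 35, 31 and 30 bp, and it was 36 bp at array sites of depth 4 or 5. CpG fell in value from a median of 9.87 per kb (95% interval 8.85 to 12.1) at depth 1 to 7.84 at depth 2 and 4.88 (4.28 to 6.97) at depth 3. This fall did not go on at array sites of depth 4 or 5, where the median was 8.41 per kb (5.21 to 11.3). Skew rose in value: the median G-C skew was 0.530, 0.591 and 0.617, and an A-T skew of 0.5 or more was found at 22.96% of sites of depth 1, 32.9% of depth 2 and 32.3% of depth 3. Both skews reached 0.5 at 9.63%, 15.3% and 17.2% of sites. The median A-T skew was 0.294, 0.322 and 0.333. At array sites of depth 4 or 5 the median G-C skew was 0.628 and the median A-T skew 0.305. Median GC, array length and nearness to an end thus had overlapping intervals across depths. Between depths 1 and 3 the intervals did not overlap for CpG or for the median G-C skew (0.500 to 0.561 and 0.573 to 0.699). Nor did they overlap there for the share with an A-T skew of 0.5 or more or the share with both skews at 0.5.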

How the data were processed

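The authors pulsed BJ-hTERT cells with BrdU, sequenced the immunoprecipitated DNA against input and called peaks; the submitters' processing notes name Bowtie2 2.3.3.1, SAMtools 1.4 and MACS2 2.1.0. The deposited list holds positions only: the chromosome, start and end of each peak on hg38, pooled over timepoints, with no counts, scores or read depths. No peak reached beyond a chromosome end. Starts were read as counted from 0. Self-match, base composition, motifs and array extents were computed from hg38, and genes from GENCODE release 44, by at least 1 bp of overlap (Python 3.11.15, numpy 2.4.6 and pandas 2.3.3). The offset search and array extent were checked only on simulated arrays of closely alike copies, with units of 7 bp or more. More diverged arrays and shorter units were not simulated. Members and gene lists were chosen with earlier results of these data known. Named genes were the 12 with the most member sites (ties by number of peaks, then symbol), those with a member in coding sequence (up to 15 by self-match; the further ones were named after their values were seen), those at the 10 highest self-matches (ties by peak width), the 8 longest arrays and the widest peak, and 40 genes listed for tandem repeats. Units shown first had the highest self-match in each length class of 7 bp or more (ties by peak width; chromosome 8 and untranslated exons left out), and the copies from PCBP3, the pentamer, NSUN6, chromosome 6, ZNF595, RRBP1 and MUC12 were chosen after their values were seen. Limits on self-match, depth, offset, window, annotation and array extent were varied, and no difference was tested. Some genes that met the naming rule are not reported here.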

Additional observations from a re-analysis of the deposited data

Results flagged for a closer look

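The rule was limited to autosomes, and outside it 154 peaks on the sex chromosomes met the same sequence limits. Of these, 143 lay at 110 sites of depth 3 or less, with a median basic unit of 15 bp, a median GC of 41.3% and a median G-C skew of 0.670. They entered no comparison above.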

How the results depend on the processing

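Of 75 alternative values, 48 stayed within the 95% interval of the reported value or, for counts, within 1.5 times it. A self-match limit of 80% left 957 peaks at 656 sites, with a median offset of 62 bp, median GC of 49.1%, 45.4% of sites above 50% GC, median skew 0.450, 45.0% at a skew of 0.5 or more, 55.3% within 5 Mb and 54.4% in protein-coding genes. A limit of 65% gave a median offset of 51 bp and a median GC of 47.0%. Depth 1 alone left 675 peaks at 675 sites, with a median skew of 0.530 and 53.9% at 0.5 or more. The median offset was 50 bp over all member peaks, 68 bp without an upper limit, and 32 bp as the basic unit. The share near ends was 15.6%, 26.4% and 59.1% for windows of 1, 2 and 10 Mb, and 58.2% of sites lay in any annotated gene. The median array was 699 bp and 451 bp long at window limits of 50% and 70%. Among alternatives added after seeing the data, leaving out pentamer sites gave 48.6% near ends and a median GC of 48.3%, and the largest unit family fell to 46 sites. The share in protein-coding genes was 47.8% in the main setting, below the 52.9% of all autosomal sites. At the 80% limit it lay above that, so this comparison turned on the limit, and it was not made without the pentamer sites. No paired analysis was possible because the pooled list names no repeat and no timepoint, and no replicate could be left out. Read depth is unknown, and whether reads from repeated copies were placed correctly was not tested.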
